A study of Mus musculus with 4 samples.

Results

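Carbonic anhydrases are zinc enzymes that interconvert carbon dioxide and water with bicarbonate and protons. In skeletal muscle, cytosolic forms act on carbon dioxide inside the fibre, membrane-bound forms face the outside of fibres and capillaries and act beside lactate and bicarbonate transporters, and mitochondrial forms supply bicarbonate to metabolic enzymes. The genes described here are Car2 and Car3 (cytosolic), Car4 (anchored to the outer membrane surface), Car9 and Car14 (transmembrane with an outward-facing catalytic domain), Car5b (mitochondrial) and Car8 (a relative without catalytic activity that binds the inositol trisphosphate receptor). These 7 genes were taken by their symbols from a table of 17906 genes, and 6 of them have a row there. Car8 was not analysed here. The group was selected on measured values in part: Car14 was chosen by its higher intensity in transgenic muscle, so its difference between the groups is described below without a test, and no count that includes it supports anything. The other genes were taken as members of the same family by compartment and level.

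Messenger RNA of quadriceps muscle came from 5-week-old CD-1 males, 2 of which carried a Lin28a transgene (Lin28a Tg) while 2 were wild type (WT). The protein that Lin28a encodes binds RNA and keeps let-7 microRNAs from maturing. Each sample was hybridised to 1 Illumina Ref-8 bead array, whose values are fluorescence intensities. The labels do not name the promoter of the transgene, the founder line or whether the samples came from separate animals, so every p-value reflects only how far these 4 samples spread, which may be technical. In whole muscle, fewer cells of a type and less RNA per cell cannot be told apart.

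A gene was taken as above background when its intensity exceeded 90.3, a level set from the bulk of dim probes, and it was tested when at least 2 of the 4 arrays exceeded that level. This left 7779 genes. The Lin28a probe, at 86.4 and 88.0 in transgenic against 82.9 and 82.6 in WT muscle, stayed under that level on each array and gives no check of the labels. All 12 genes of a fast-fibre list, such as Acta1 and Ckm, were above background on all 4 arrays. So were 8 of 12 genes of a slow-fibre list, whereas Myh7 and Tnni1 of that list were below it on all 4. WT replicate 1 stood farthest from the other arrays, with correlations of log2 intensity of 0.976 and 0.978 with the transgenic arrays, and 0.978 with WT replicate 2, against 0.985 and 0.989 between WT replicate 2 and the transgenic arrays. Many genes of hepatocytes were far brighter on it than elsewhere, although Alb, Fgb and Apoh were below background on all 4 arrays. Apoa2 read 89.9 and 88.8 in the transgenic samples, against 5506 in WT replicate 1 and 84.9 in WT replicate 2.

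Promoter sequence of 2 members is shown because Car14 is the gene with separated groups and Car9 is the family's textbook target of hypoxia-inducible factors. Of the 7 genes, 4 have a window in RefSeq's table (build GRCm38.p6), and the 250 bases before the annotated start are printed 5′ to 3′ on the strand of the gene. The Car14 window is chr3:95904686-95904935 on the minus strand and the Car9 window is chr4:43506776-43507025 on the plus strand. Capitals mark the core of the hypoxia response element, ACGTG, which is read here on the opposite strand.
Car14: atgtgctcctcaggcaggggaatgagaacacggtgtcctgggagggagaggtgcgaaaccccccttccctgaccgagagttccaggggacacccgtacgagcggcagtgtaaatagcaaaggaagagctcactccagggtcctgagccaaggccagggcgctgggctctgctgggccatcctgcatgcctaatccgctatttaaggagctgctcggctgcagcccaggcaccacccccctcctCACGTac
Car9: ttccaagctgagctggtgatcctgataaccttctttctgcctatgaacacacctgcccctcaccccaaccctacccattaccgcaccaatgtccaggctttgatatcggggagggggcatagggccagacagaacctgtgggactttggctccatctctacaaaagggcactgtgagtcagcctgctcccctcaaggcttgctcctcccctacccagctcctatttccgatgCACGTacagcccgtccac
The core lies once in each window, starting 7 bases before the start of Car14 and 18 bases before that of Car9. It is in 16.6% of all 32851 windows of this length, counted on both strands. The windows of Car4 and Car5b hold none. The muscle-related E-box, CANNTG, is in 66.2% of all windows and in that of Car9, but in none of those of Car14, Car4 and Car5b, and a TATAAA box (12.4% of all windows), a MEF2 site (2.92%) or a CArG box (1.47%) is in none of the 4. These matches describe letters in the window and no binding was measured.

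Car14, the transmembrane form found on the surface membrane of muscle fibres, was brighter on both transgenic arrays than on both WT arrays. Its probe read 376.2 and 364 in the transgenic samples, against 248.8 and 235.4 in the WT samples. The groups did not overlap, and arrays of the same group lay close together, 0.05 apart on the log2 scale in the transgenic pair and 0.08 in the WT pair. The means were 370.1 ± 8.64 in transgenic and 242.1 ± 9.51 in WT muscle (SD, n = 2 each). The ratio was 1.53 on the intensity scale and the log2 difference was 0.61. Its limma standard error was 0.06, and 0.11 under trended robust eBayes. Because Car14 was chosen for its rise, neither serves as a test. Among all 7779 genes tested, 44 (0.566%), Car14 included, had a log2 difference at least this large in the same direction. That place follows from the choice of Car14 by its rise and is no measure of chance. The closest transgenic and WT arrays differed by 0.55 on the log2 scale and the farthest by 0.68. With any 1 array left out the log2 difference lay between 0.57 and 0.65. It was 0.65 without WT replicate 1, on which many hepatocyte genes were bright. The values carry unsubtracted background, which understates ratios of dim probes.

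**Figure D1:**
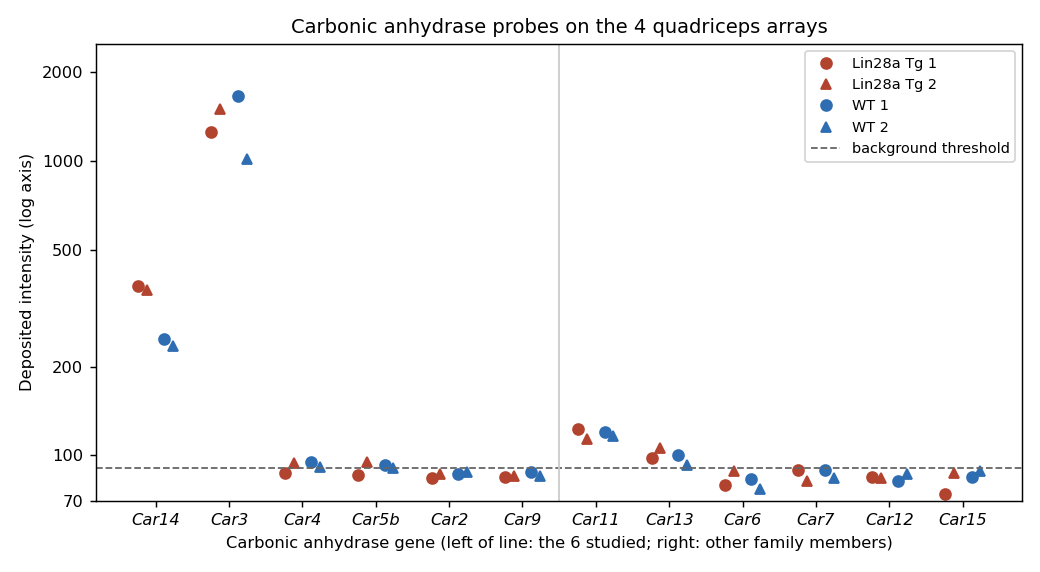
Intensity of 12 carbonic anhydrase probes on each of the 4 arrays, on a log axis, with Lin28a transgenic arrays in red, WT arrays in blue and the background level of 90.3 as a dashed line. Car14 separates the groups (364 and 376.2 against 235.4 and 248.8), Car3 does not, and most other probes lie at or near the dashed line.

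Car3, the cytosolic form that is abundant in slow-twitch fibres of rat and human muscle, in adipocytes and in liver, varied between arrays without separating the groups. Its probe read 1258 and 1498 in the transgenic samples, against 1658 and 1016 in the WT samples, so both transgenic values lay between the WT values. The WT arrays differed by 0.71 on the log2 scale, and only 1.71% of all genes tested had a WT gap at least as large, while the transgenic arrays differed by 0.25. The log2 difference between the groups was 0.08 (limma standard error 0.26, 95% interval -0.63 to 0.79, adjusted p = 0.971). Its direction turned with single arrays. It was 0.43 without WT replicate 1 and 0.21 without transgenic replicate 1, but -0.27 without WT replicate 2 and -0.05 without transgenic replicate 2.

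The remaining members lay at the edge of the background or below it. Car4, which is anchored to capillary endothelium and to the fibre membrane, read 87.0 and 93.7 in the transgenic samples, against 94.9 and 91.0 in the WT samples. It was above background on 1 of 2 transgenic and 2 of 2 WT arrays, and the groups overlapped (log2 difference -0.04, 95% interval -0.23 to 0.15, limma adjusted p = 0.926). Car5b, the mitochondrial form, read 85.5 and 94.7 in the transgenic samples, against 92.3 and 90.2 in the WT samples. It passed the background level on 1 array of each group (log2 difference -0.02, 95% interval -0.23 to 0.18, limma adjusted p = 0.976). Both intervals refer to intensities that are mostly background and say little about the transcripts.

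Car2, the fast cytosolic form of erythrocytes and many other cells, did not exceed background on any array. It read 83.4 and 86.3 in transgenic muscle, against 86.5 and 88.0 in WT muscle. Both transgenic values were below both WT values, but at this level they have no order and no ratio is given. Car9, the form induced by hypoxia in many tissues, read 84.1 and 85.1 in the transgenic samples, against 87.4 and 85.0 in the WT samples. It too was below background on all 4 arrays, so neither gene was detectable at this signal.

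Apart from Car14, then, 3 members were tested, and limma called 0 of 3 at an adjusted p under 0.05, as it called 0% of all 7779 genes. At an unadjusted p under 0.05 the count was again 0 of 3, against 693 of all genes (8.91%). The groups were without overlap in 0 of these 3 genes, whereas both transgenic arrays lay above both WT arrays for 21.8% of all genes tested and below them for 16.7%. Their median log2 difference was -0.02, and 0.03 with Car14 added, against 0.01 over all genes tested. With 3 genes, 2 of them at the edge of background, these counts describe the members and nothing wider.

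**Figure D2:**
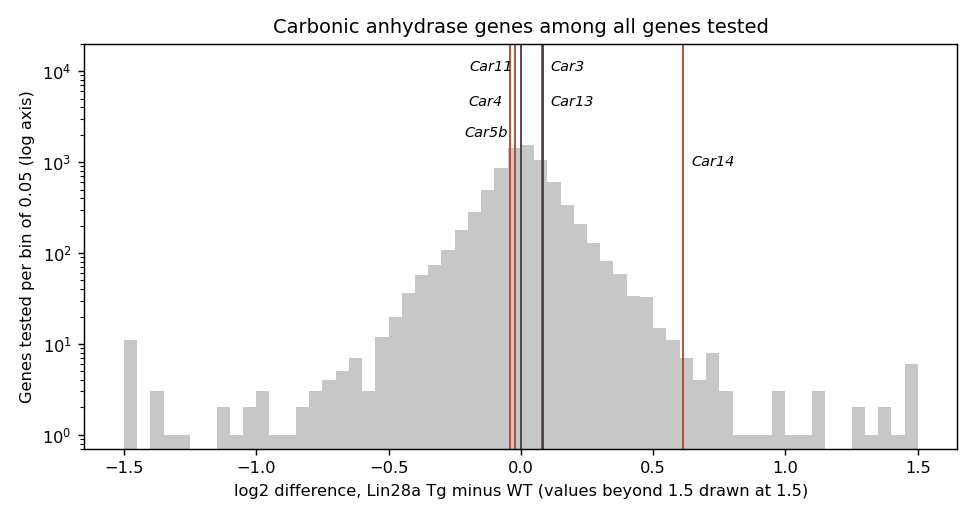
Histogram of the log2 difference in intensity, Lin28a transgenic minus WT, over the 7779 genes tested, with a log count axis, and vertical lines for the tested carbonic anhydrase genes (red for Car14, Car3, Car4 and Car5b, dark grey for Car11 and Car13). Car14, chosen for its rise, stands at 0.61, in the upper tail, and the other lines stand between -0.04 and 0.08.

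Of 9 further carbonic anhydrase genes listed, 6 have a row, and 2 of those were tested. Car11, a secreted relative without catalytic activity, read 122.5 and 113.8 in the transgenic samples, against 119.5 and 116.7 in the WT samples. The transgenic values enclosed the WT values, and the log2 difference was 0.00 (95% interval -0.18 to 0.18, limma adjusted p = 0.999). Car13, another cytosolic form, read 98.1 and 105.9 in the transgenic samples, against 100.02 and 92.7 in the WT samples. Its groups overlapped as well, with a log2 difference of 0.08 (95% interval -0.13 to 0.29, limma adjusted p = 0.831). The secreted form Car6, the cytosolic form Car7, the transmembrane form Car12 and the membrane-anchored form Car15 were below background on all 4 arrays, between 74.0 and 89.0. Car1, Car5a and Car10 were not analysed here. In RefSeq's gene order Car13, Car1, Car3 and Car2 follow each other on chromosome 3 as neighbouring coding genes, and Car14 lies elsewhere on the same chromosome. Of the 3 neighbours with a row, Car3 was bright, Car13 just above background and Car2 below it, each on its own probe. No difference was shown for the 2 that were tested.

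Genes were also sought whose values over the 4 arrays ran most like those of Car14 and Car3, the members above background on every array. Likeness was the root mean square difference between log2 values centred on each gene's mean, over 4 arrays of 7779 genes. Nearest to Car14 were Bcat1, a branched-chain aminotransferase gene (0.045), the selenoprotein gene Selenon (0.057) and Slc41a3, a member of a magnesium transporter family (0.058). Bcat1 read 178.3 and 174.4 in the transgenic samples, against 112.3 and 104.8 in the WT samples. Nearest to Car3 were the globin gene Hba-a1 (0.056), the mitochondrial membrane protein gene Romo1 (0.058) and the ribosomal protein gene Rps25 (0.063). Hba-a1 read 26924 and 33637 in the transgenic samples, against 33637 and 22490 in the WT samples, so that, as for Car3, WT replicate 2 was the lowest array. The value 33637 is the highest in the table and is reached on each of the 4 arrays, which had been normalized between arrays. It falls to Hba-a1 on transgenic replicate 2 and WT replicate 1, to Acta1 on transgenic replicate 1 and to Mylpf on WT replicate 2. The likeness of Hba-a1 to Car3 thus rests in part on a value shared by the top genes of the arrays. Saturation of the probe was not tested.

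Carbonic anhydrases occur in several cell types of a muscle sample, and marker lists of these cells were set beside Car3 and Car14 array by array. For each list the score is the mean log2 deviation of its tested genes from their means over the 4 arrays. Erythroid genes scored -0.21 and 0.35 in the transgenic samples, against 0.17 and -0.31 in the WT samples. Their summed intensity was 27619 and 34857 in the transgenic samples, against 34655 and 23151 in the WT samples, nearly all of it Hba-a1. Of 10 erythroid genes with a row 6 were tested, and Epb42, Bpgm and Rhag were below background on all 4 arrays. Alas2, which encodes the first enzyme of heme synthesis in erythroid cells, read 231.6 and 567.9 in the transgenic samples, against 450.03 and 219.6 in the WT samples. Hbb-b1, a beta globin gene, read 101.2 and 92.6 in the transgenic samples, against 95.8 and 90.3 in the WT samples, and its groups overlapped. Car3 and the erythroid list were thus both lowest on WT replicate 2, while their highest arrays differed, WT replicate 1 for Car3 and transgenic replicate 2 for the list. Car2, the erythrocyte form, was below background throughout.

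Adipocyte genes scored -0.50 and 0.17 in the transgenic samples, against 0.34 and -0.02 in the WT samples, and 10 of 12 were tested. Of the 10, 2 had a positive and 8 a negative log2 difference, with a median of -0.18 and 0 called by limma. The groups did not overlap in 1, which was lower in transgenic muscle (16.7% of all genes tested were). Their summed intensity was 13833 and 17754 in the transgenic samples, against 18677 and 16225 in the WT samples. Cfd, which encodes the secreted protease adipsin, read 5435 and 6252 in the transgenic samples, against 6543 and 5037 in the WT samples, the same order of arrays as Car3. Adipoq, the adiponectin gene, read 185.2 and 345.5 in the transgenic samples, against 464.6 and 253.1 in the WT samples, with its lowest value in transgenic replicate 1 instead. Fabp4 and Retn exceeded background on 1 and 0 arrays. The part of these cells in the variation of Car3 was not tested.

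Hepatocyte genes scored -1.08 and -0.73 in the transgenic samples, against 2.82 in WT replicate 1 and -1.01 in WT replicate 2. Of 14 such genes 6 were tested, and their summed intensity was 803.6 and 1163 in the transgenic samples, against 11357 and 886.1 in the WT samples. Ttr, the transthyretin gene, read 82.6 and 80.3 in the transgenic samples, against 1746 and 83.2 in the WT samples, while Alb was below background on all 4 arrays. WT replicate 1 was also the highest array for Car3, a gene of liver as well as of muscle, and the part of the hepatocyte signal in this was not tested. For Car14 that array lay with the other WT array, at 248.8 and 235.4.

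Slow-fibre genes scored -0.29 and 0.14 in the transgenic samples, against -0.75 and 0.90 in the WT samples, with 8 of 12 tested. Their summed intensity was 2415 and 4130 in the transgenic samples, against 1559 and 9467 in the WT samples. Myl3, a slow myosin light chain gene, read 370.9 and 1887 in the transgenic samples, against 195.5 and 3547 in the WT samples. The order was the reverse of that of Car3 within the WT pair: WT replicate 2 was the highest array for the slow-fibre list and the lowest for Car3. Of the 8 tested genes of that list, 1 was higher and 1 was lower in transgenic muscle without overlap. Over all genes tested the shares were 21.8% and 16.7%. The higher one was Sln, which encodes the calcium pump regulator sarcolipin, at 684.3 and 444.3 in the transgenic samples, against 202.4 and 203.4 in the WT samples (limma adjusted p = 0.486).

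Fast-fibre scores lay between -0.02 and 0.03 on all 4 arrays, a mean over genes that went both ways. Of the 12 genes 2 were higher and 2 were lower in transgenic muscle without overlap, against 21.8% and 16.7% of all genes tested, and limma called 0. Myh1, a fast myosin heavy chain gene, read 216.6 and 294.4 in the transgenic samples, against 164.9 and 191.9 in the WT samples (log2 difference 0.51, 95% interval 0.03 to 0.99, limma adjusted p = 0.551). Sln of the slow-fibre list and Myh1 and Actn3 of the fast-fibre list separated the groups in the same direction as Car14. Tnnc1 of the slow-fibre list and Myl1 and Tnnt3 of the fast-fibre list separated them in the opposite direction (log2 difference -1.27, -0.14 and -0.13). Tnnc1 read 159.8 and 156.7 in the transgenic samples, against 166.6 and 869.8 in the WT samples (95% interval -3.47 to 0.94, limma adjusted p = 0.7455). Its difference thus rests mostly on WT replicate 2. The part of fibre composition in the Car14 difference was not tested.

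**Figure D3:**
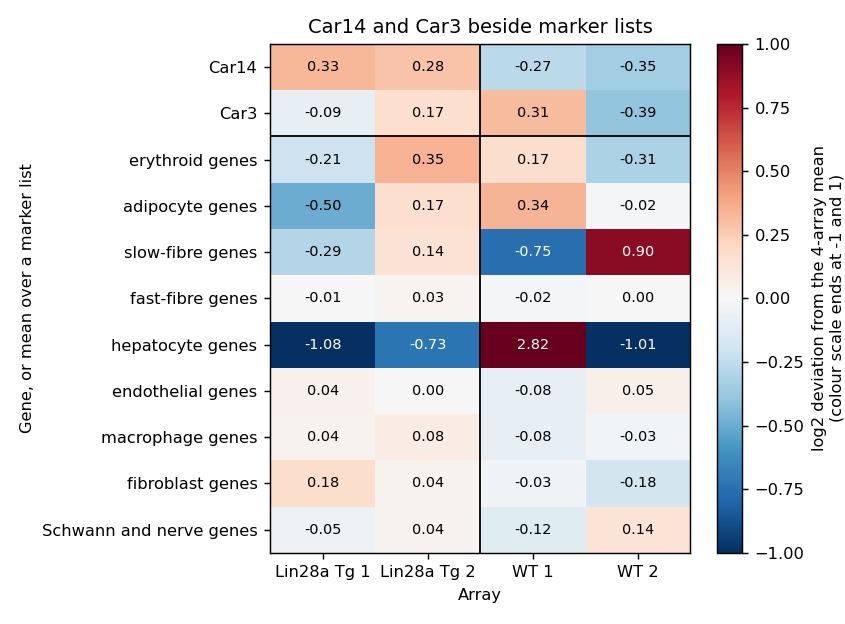
Heat map of log2 deviation from the mean of the 4 arrays for Car14, Car3 and 9 marker lists (mean over the tested genes of each list), with arrays in columns, transgenic arrays on the left, and a colour scale that ends at -1 and 1. Car14 is positive on both transgenic and negative on both WT arrays, and Car3 runs from -0.39 in WT replicate 2 to 0.31 in WT replicate 1.

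Endothelial cells of muscle capillaries carry Car4, and the mean over their markers moved little between arrays, although single markers moved both ways. The list scored 0.04 and -0.003 in the transgenic samples, against -0.08 and 0.05 in the WT samples, with 12 of 12 genes tested. Pecam1, the CD31 gene, read 118.4 and 126.04 in the transgenic samples, against 112.1 and 117.8 in the WT samples. Cdh5, the vascular cadherin gene, read 125.4 and 114.4 in the transgenic samples, against 98.4 and 119.9 in the WT samples, and its groups overlapped. Kdr, a receptor for vascular endothelial growth factor, exceeded background on 2 of 4 arrays. Of the 12 genes 2 were higher and 2 were lower in transgenic muscle without overlap, against 21.8% and 16.7% of all genes tested. Limma called 0 of the 12. Cldn5, a tight junction gene of endothelium, was the farthest apart of these, at 229.1 and 226.5 in the transgenic samples, against 167.7 and 180.8 in the WT samples (log2 difference 0.39, 95% interval 0.21 to 0.57, limma adjusted p = 0.486). Flt1, another growth factor receptor gene, read 144.3 and 133.2 in the transgenic samples, against 149.6 and 171.2 in the WT samples (log2 difference -0.21), and Eng, the endoglin gene, differed by -0.06 in the same direction. The part of endothelial cells in the Car14 difference was not tested. Scores were 0.04 and 0.08 against -0.08 and -0.03 for macrophage genes (9 of 9 tested), 0.18 and 0.04 against -0.03 and -0.18 for fibroblast genes (6 of 6), and -0.05 and 0.04 against -0.12 and 0.14 for Schwann and nerve genes (4 of 6 with a row), each with the transgenic samples before the WT samples. The fibroblast and macrophage scores were higher on both transgenic than on both WT arrays, as was Car14. Of the fibroblast genes only Col1a1 and Col3a1 separated the groups (log2 difference 0.80 and 0.40). The log2 difference was positive in 5 of the 6, with a median of 0.10 over the list. Dcn alone went the other way, with overlap (-0.18), and a shared rise of the list was not tested. Summed fibroblast intensity was 7853 and 7141 in the transgenic samples, against 7332 and 6517 in the WT samples, with overlap. Summed macrophage intensity was 2848 and 3137 in the transgenic samples, against 2517 and 2795 in the WT samples, without overlap, and every fibroblast gene was above background on all 4 arrays. Both transgenic arrays lay above both WT arrays in 3 of 9 macrophage and 2 of 6 fibroblast genes (21.8% of all genes tested), and limma called 0 of either list. The part of these cells in the Car14 difference was not tested.

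Extracellular carbonic anhydrases work beside transporters of bicarbonate, protons and lactate. Of 18 listed transporters of bicarbonate and acid and a scaffold protein, 14 have a row and 6 were tested, and limma called 0 at an adjusted p under 0.05. Of the 6, both transgenic arrays were above both WT arrays in 3 (21.8% of all genes were) and below them in 0. Slc4a3, the anion exchanger of excitable tissues, read 119.7 and 124.5 in the transgenic samples, against 103.7 and 104.1 in the WT samples. The groups did not overlap, at a log2 difference of 0.23 (standard error 0.06, limma adjusted p = 0.512), which did not pass the test. Slc4a4, a sodium-bicarbonate cotransporter, exceeded background on 1 array. The list's median log2 difference was 0.14, against 0.01 over all genes tested.

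Among 8 genes of lactate transport and production, 7 have a row and 3 were tested, with 0 called by limma and a median log2 difference of 0.00. In 1 of the 3 the groups did not overlap, and it was lower in transgenic muscle (16.7% of all genes tested were). Slc16a3, the lactate exporter of glycolytic fibres, read 93.2 and 95.8 in the transgenic samples, against 94.8 and 94.4 in the WT samples. Slc16a1, the transporter of oxidative fibres, and Bsg, the chaperone of both, were below background on all 4 arrays on their probes. Ldha, the muscle subunit of lactate dehydrogenase, read 17192 and 13237 in the transgenic samples, against 15767 and 12542 in the WT samples, with overlapping groups (log2 difference 0.10, limma adjusted p = 0.931). Ldhb was not analysed here.

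Car9 is a target of hypoxia-inducible factors, and other such targets were read beside it. Of 18 listed, 17 have a row and 10 were tested, of which 5 had a positive and 5 a negative log2 difference, with a median of 0.01 and 0 called by limma. The groups did not overlap in 1 (16.7% of all genes were lower without overlap), Ndrg1, which was lower in transgenic muscle at 117.4 and 122.5, against 127.2 and 148.2 in the WT samples (log2 difference -0.19, limma adjusted p = 0.681). Vegfa, the endothelial growth factor gene, read 171.2 and 233.1 in the transgenic samples, against 177.9 and 210.3 in the WT samples. Slc2a1, the basal glucose transporter, read 140.9 and 129.7 in the transgenic samples, against 134.7 and 146.1 in the WT samples. Egln3, a prolyl hydroxylase that marks the factor for degradation, read 90.7 and 98.7 in the transgenic samples, against 85.2 and 98.7 in the WT samples. In the last 3 the groups overlapped, and Pgk1 exceeded background on 1 array. A shared shift of these genes was not shown.

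**Figure D4:**
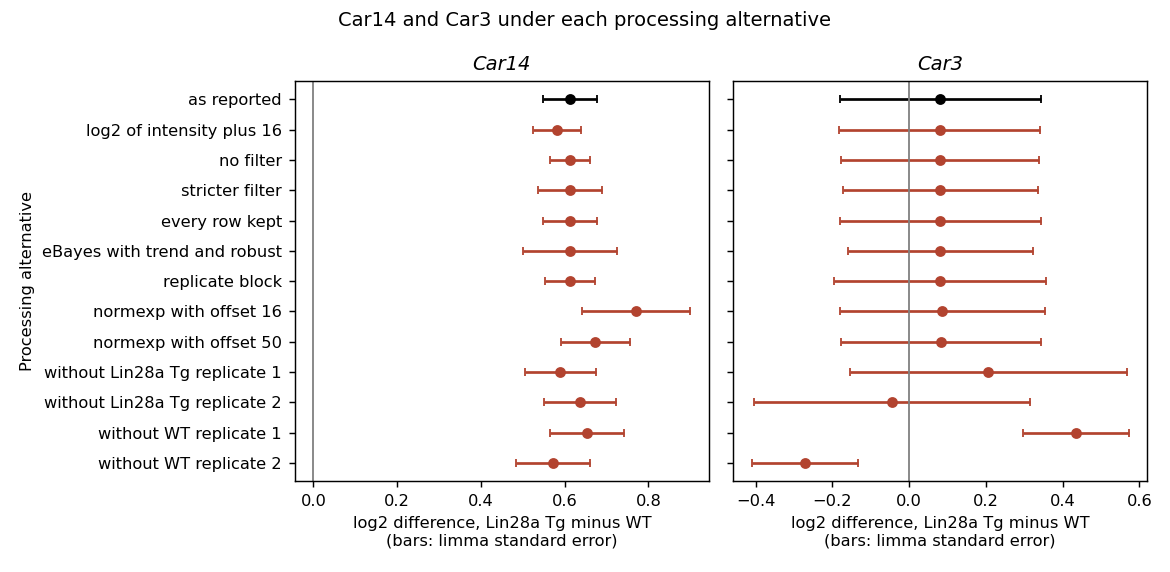
Log2 difference in intensity, Lin28a transgenic minus WT, of Car14 (left) and Car3 (right) as reported and under 12 processing alternatives, with limma standard errors as bars. Car14 stays between 0.57 and 0.77, and Car3 lies on both sides of 0. The bars for Car14 are no test, because it was chosen for its rise.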

How the data were processed

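Log2 analysis began from the values the authors deposited: intensity on a linear scale, for 18091 gene symbols. Per the labels' protocols, Trizol extracts passed through RNeasy columns with DNase I before biotin labelling. The sources used here name no software, normalization method or probe summary. At equal rank the arrays differ by a median of 0.0916%, so they had been normalized between arrays, and the lowest is 72.8, so background had not been subtracted. A second table has 8 value columns whose names match no sample label. They were not used, and its annotation only named probes.

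Of 18091 rows, 14090 had a current symbol, 3044 were matched through an older one, 75 matched several and 882 none. Rows sharing a symbol were reduced to the brightest, leaving 17906 genes. Background is the mode of all log2 values (84.9 as intensity), and the threshold lies 1.645 SD above it (90.3). Lin28a transgenic and WT were compared in limma 3.58.1 (R 4.3.3; lmFit, then eBayes), with no covariates and with Benjamini-Hochberg adjustment over 7779 genes. The fit was tested on simulated data. Python 3.11.15 with pandas 2.3.3 and numpy 2.4.6 prepared the tables. Only 4 arrays limit the precision.

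The alternatives tried were normexp background correction (offsets 16 and 50), an added 16 before log2, dropping the filter or raising it to 94.9 on all 4 arrays, keeping rows that share a symbol, trended robust eBayes, an adjusted p under 0.10, a block for replicate number and omission of each array. The members, lists, background rule and alternatives were chosen with earlier results of these data known. Named genes were every carbonic anhydrase gene with a row, markers and transporters fixed by role, Lin28a, and the 3 genes nearest in pattern to each member above background on all arrays. Ndrg1 was named after its values were seen, as were Retn, Epb42, Bpgm, Rhag, Sln, Myh1, Cldn5, Flt1 and Eng. The same holds for Mylpf, Tnnc1, Actn3, Myl1, Tnnt3, Col1a1, Col3a1, Dcn, Fgb and Apoh. Of the other genes that the rule covers, 1 is not reported here.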

Additional observations from a re-analysis of the deposited data

How the results depend on the processing

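Among members other than Car14, limma called 0 under every alternative run, with 3 tested in most, Car3 alone under the stricter filter, and Car2 and Car9 added without the filter. Over all genes it called 0 except without WT replicate 2, where it called 19, so that the count lay between 0 and 19 with 1 array left out. Of the members other than Car14, the groups did not overlap in 1 without the filter, which is Car2 below background, and in 1 to 2 with 1 array left out, where separation is easier to reach with fewer arrays. The median log2 difference of the tested members was 0.35 under the stricter filter, which leaves Car3 and Car14, and 0.081 without Car14, which leaves Car3. With 1 array left out the 2 medians lay between -0.070 and 0.21 and between -0.094 and 0.053. Car3 lay between -0.27 and 0.43, Car4 between -0.094 and 0.013 and Car5b between -0.094 and 0.053 in the same fits, so the direction of each turned with single arrays: Car4 at 0.013 and Car5b at 0.053 without transgenic replicate 1, and Car3 at -0.27 without WT replicate 2 and -0.045 without transgenic replicate 2. The cause was not tested. Car14 was at 0.77 and 0.67 with normexp at offsets of 16 and 50, and between 0.57 and 0.65 with 1 array left out. A lone array in a group is assumed to vary like the other group. With the replicate number as a replicate block, Car3 stayed at 0.08 (limma adjusted p = 0.964) and 0 genes were called. Same-numbered arrays deviated with a correlation of 0.04, and the samples share only a number. Signal at or near background limits what Car2, Car4, Car5b and Car9 can show.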
